A study of Mus musculus with 6 samples.

Results

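*Osm*, *Lif*, *Clcf1*, *Osmr*, *Lifr*, *Il6ra*, *Il6st*, *Stat3* and *Socs3* were examined as the genes of oncostatin M and gp130 signalling, 9 of the 18152 genes in the deposited expression table, in the inner enamel epithelium (IEE) of mouse embryos. The 9 genes were taken from the table by their symbols, and they had been chosen by a rule that used their difference between the genotypes in these same libraries. That difference is therefore given as a description, and nothing is read from how many of the 9 a test called. RNA came from the IEE of the mandibular first molar at E18.5, cut from frozen head sections by laser capture microdissection, in which cells at the border of the captured area can be included. There were 3 libraries from *Kdf1* fl/fl mice, which carry the floxed allele without Cre and are called controls here, after the sample labels (control, WT). The other 3 libraries came from *K14-Cre;Kdf1* fl/fl mice, called cKO after the labels, in which Cre under the keratin promoter *K14* removes *Kdf1* in epithelial cells and leaves it in the mesenchyme. Both lines were on a C57BL/6J background, and animals of both genotypes were homozygous for the floxed allele. The labels call the libraries biological replicates and do not say how many embryos each one holds.

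The cytokines of the interleukin-6 family act through receptors that share the subunit gp130, which is encoded by *Il6st*. Oncostatin M, made mainly by blood cells, joins gp130 to the oncostatin M receptor (*Osmr*), while leukaemia inhibitory factor (LIF) joins it to the LIF receptor (*Lifr*). The bound receptors recruit JAK kinases that phosphorylate STAT3, and STAT3 in turn raises transcription of *Socs3*, whose protein binds gp130 and JAK kinases and limits the signal. In skin, oncostatin M makes keratinocytes produce S100 proteins and lowers their differentiation keratins. Phosphorylation is not visible in RNA, and the values given here are transcript levels.

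Library totals ranged from 14713918 to 16675133 estimated reads, and 16289 to 16760 genes had a count in each library. *Kdf1* was at 44.3 to 52.7 CPM (counts scaled by library size and TMM factor) in control libraries and at 0, 0.0629 and 0 CPM in cKO libraries. Among the cKO libraries, replicate 1 stood apart for the genes described here. It had the highest CPM of all 6 libraries in 8 of the 9 genes, against 20.5% of all 14131 genes tested. The fold changes of these genes are therefore given with and without it. A count of 0 allows up to 3 counts, or 0.182 to 0.198 CPM, and this limit covers counting error only.

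The specific receptor genes *Osmr* and *Lifr* were higher in every cKO library. *Osmr*, the specific subunit of the oncostatin M receptor (gene identifier 18414), was 14.8-fold higher on average in cKO libraries and *Lifr* 3.26-fold higher, each without overlap between the groups. The shared subunit *Il6st* and the transcription factor *Stat3* were both close to control levels in 2 of the 3 cKO libraries. *Socs3* was higher in all 3, and so were the ligand genes *Clcf1* and, at low levels, *Lif*.

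*Osmr* was at 1.88, 2.48 and 1.07 CPM in control replicates 1, 2 and 3 and at 63.3, 5.85 and 11.4 CPM in cKO replicates 1, 2 and 3. The lowest cKO library was above the highest control, and replicate 1 was 7.34-fold above the mean of the other two. The means were 1.81 ± 0.707 and 26.9 ± 31.7 CPM (SD, n = 3 per group), so the SD of the second group exceeded its mean. The fitted log2 fold change was 3.88 (SE 0.95), and it was 2.26 (SE 0.46) without cKO replicate 1. The mean of cKO replicates 2 and 3 was 4.76-fold that of the controls.

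*Lifr* (gene identifier 16880), the specific subunit of the LIF receptor, was at 17.5, 24.4 and 12.7 CPM in control libraries and at 94.2, 44.2 and 39.4 CPM in cKO libraries. The groups did not overlap, and the spread among the cKO libraries was narrower than for *Osmr*. The log2 fold change was 1.70 (SE 0.39) with all libraries and 1.21 (SE 0.28) without replicate 1. In the RefSeq gene order of GRCm38.p6 *Lifr* and *Osmr* are neighbouring coding genes, as are the ligand genes *Lif* and *Osm*.

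*Il6ra* (gene identifier 16194), the specific receptor subunit for interleukin-6, was low in every library. It had 7, 21 and 5 counts in control libraries and 71, 24 and 9 in cKO libraries, and the groups overlapped. The log2 fold change was 1.69 (SE 0.83) with all libraries and 0.64 (SE 0.74) without replicate 1.

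*Il6st* (gene identifier 16195), which encodes gp130, was at 66.9, 69.1 and 55.1 CPM in control libraries and at 160, 69.1 and 50.4 CPM in cKO libraries. cKO replicate 1 was the only library above the control range. The log2 fold change of 0.55 (SE 0.40) changed its sign to −0.08 (SE 0.18) without that library.

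**Figure D1:**
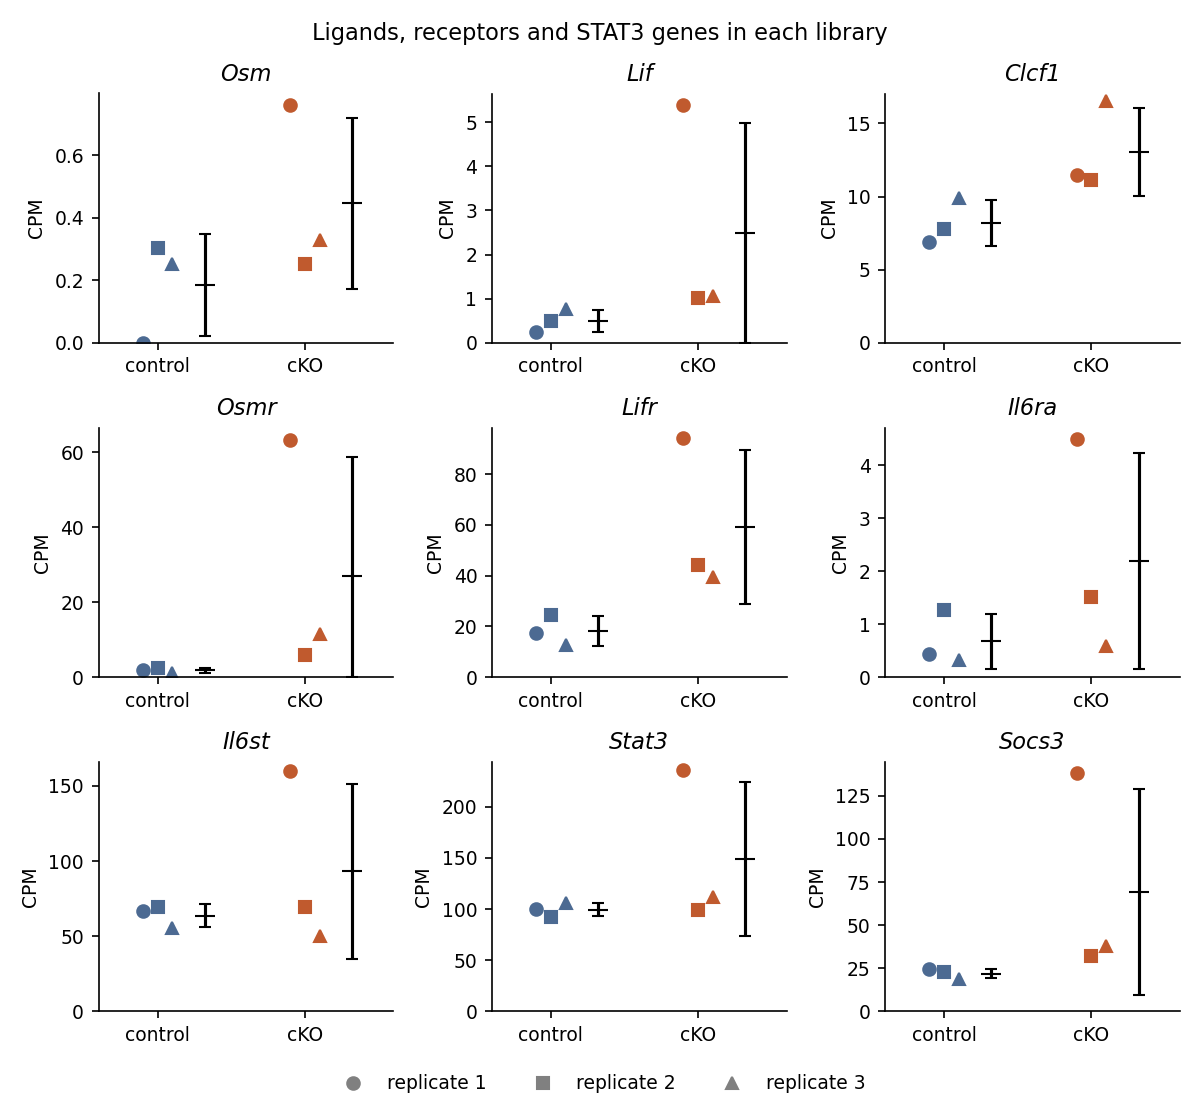
Expression of each gene in each library, in CPM on axes that start at 0, for control (blue) and cKO (orange) libraries. Marker shapes give the replicate number, and black bars give the mean ± SD (n = 3 per group), drawn no lower than 0. cKO replicate 1 is the highest point in 8 of the 9 panels, and the groups do not overlap for *Osmr*, *Lifr*, *Lif*, *Socs3* and *Clcf1*.

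Because TPM values are scaled by transcript length, they allow the receptor subunits to be set against each other within a library. In control libraries there were 3.19, 4.08 and 2.24 *Osmr* transcripts for every 100 of *Il6st*. In cKO libraries there were 44.9, 9.55 and 25.3. The ratio was higher in each cKO library than in any control, also in replicates 2 and 3, where *Il6st* itself was not above the controls.

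For *Lifr* the same ratio was 16.8, 20.1 and 14.2 per 100 *Il6st* in control libraries and 34.2, 37.5 and 49.4 in cKO libraries. Replicate 1 was the lowest of the cKO libraries here, unlike in the levels. *Osmr* was at 19.0, 20.3 and 15.7 per 100 *Lifr* in controls and at 131, 25.5 and 51.2 in cKO libraries. *Osmr* exceeded *Lifr* per length in cKO replicate 1 and in no other library.

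**Figure D2:**
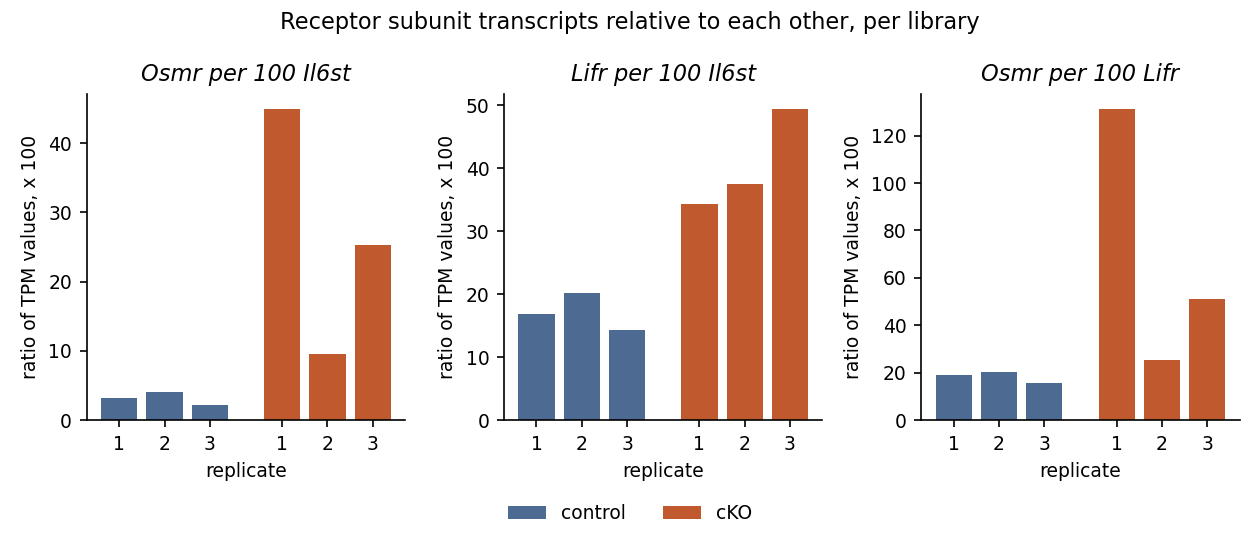
Ratios between receptor subunit transcripts in each library, as TPM of the first gene per 100 TPM of the second, with bars from 0 for replicates 1 to 3 of each genotype. *Osmr* and *Lifr* relative to *Il6st* are higher in every cKO library (9.55 to 44.9 and 34.2 to 49.4) than in any control library (2.24 to 4.08 and 14.2 to 20.1).

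Of the ligands, *Osm* (gene identifier 18413) was scarcely detected. It had 0, 5 and 4 counts in control libraries and 12, 4 and 5 counts in cKO libraries. The groups overlapped, and 4 and 5 counts occurred in each of them. *Osm* was the only one of the 9 genes that did not pass the filter on low counts, so no fold change was fitted, and a difference was not detectable at this depth.

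*Lif* (gene identifier 16878) had 4, 8 and 12 counts in control libraries and 85, 16 and 16 in cKO libraries, or 0.251 to 0.758 and 1.01 to 5.38 CPM. The groups did not overlap, but only 4 counts separated the highest control from the lowest cKO libraries. Its log2 fold change of 2.30 (SE 0.81) was 1.05 (SE 0.54) without replicate 1.

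*Clcf1* (gene identifier 56708) encodes cardiotrophin-like cytokine factor, which signals through the ciliary neurotrophic factor receptor, LIF receptor and gp130. It was at 6.91, 7.75 and 9.92 CPM in control libraries and at 11.5, 11.1 and 16.5 CPM in cKO libraries. It was the most abundant of the 3 ligands per length in both groups, and the only one of the 9 genes whose highest value was not in replicate 1. The log2 fold change was 0.67 (SE 0.24) with all libraries and 0.77 (SE 0.27) without replicate 1.

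*Stat3* (gene identifier 20848), the main transcription factor of the pathway, was at 100, 92.4 and 106 CPM in control libraries and at 236, 99.4 and 112 CPM in cKO libraries. cKO replicate 2 lay within the control range and replicate 3 just above it. The log2 fold change was 0.58 (SE 0.32), and 0.11 (SE 0.12) without replicate 1. *Stat3*, *Il6ra* and *Clcf1* overlap noncoding genes in RefSeq, and since it is not known whether the counting used strand, reads of such pairs may not be told apart.

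*Socs3* (gene identifier 12702), the feedback inhibitor, was at 24.4, 22.5 and 18.8 CPM in control libraries and at 138, 32.2 and 37.6 CPM in cKO libraries. The groups did not overlap, and replicates 2 and 3 lay 1.47-fold and 1.72-fold above the control mean. The log2 fold change was 1.66 (SE 0.55) with all libraries and 0.69 (SE 0.17) without replicate 1.

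**Figure D3:**
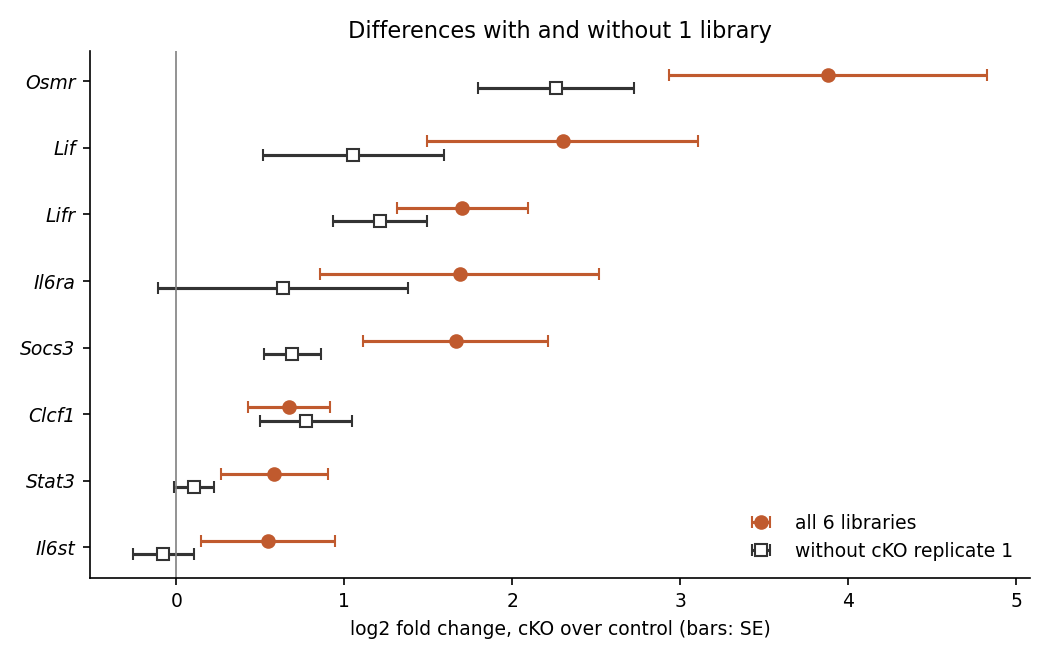
Log2 fold changes (cKO over control) of the 8 genes that passed the filter, with their standard errors, from all 6 libraries (filled circles) and without cKO replicate 1 (open squares). Without that library the values of *Stat3* (0.11) and *Il6st* (−0.08) lie near 0, that of *Osmr* stays highest (2.26) and that of *Clcf1* does not decrease (0.77).

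A gene was called where its log2 fold change was 1 or more in size and its Benjamini-Hochberg adjusted p over all genes was at most 0.05. In edgeR's quasi-likelihood test 0 of the 8 tested genes were called, where 0.432% of all genes tested were. Unadjusted p values of at most 0.05 were reached by 5 of the 8, all higher in cKO, and by 24.5% of all genes, or 13.0% counted only where cKO was higher. DESeq2 on the same counts called *Osmr*, *Lifr* and *Socs3* (6.94% of all genes, 5.05% with cKO higher), and edgeR with the replicate number as a block called *Lifr* alone (6.09% of all genes, 4.16% with cKO higher). Without cKO replicate 1, edgeR called 0 of the 8 (0.007% of all genes), and 4 reached 0.05 without adjustment (19.9% of all genes). In the same libraries DESeq2 called *Osmr* and *Lifr* (4.01%), as did edgeR with the block (5.85%). In that block fit control replicate 1 had no partner, and the labels do not state pairs. The groups did not overlap, with cKO higher, in 5 of the 9 genes. Over all genes tested they did not overlap in 30.7%, and with cKO higher in 14.5%. Since this contrast was known when the genes were chosen, nothing is read from these counts. *Lif* and *Il6ra* passed the filter on low counts with control values under 1 CPM on average. The median log2 fold change of the 8 genes was 1.68, and 0.73 without replicate 1, beside −0.00 and 0.02 for all genes tested.

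Per length, the transcription factor and the shared receptor subunit stood above the specific receptors in control libraries. *Stat3* was highest at 40.0 ± 0.650 TPM (SD, n = 3), above 76.8% of all genes in the table. *Il6st* followed at 21.2 ± 3.74 TPM, then *Socs3* at 14.1 ± 2.64, *Clcf1* at 8.80 ± 1.25 and *Lifr* at 3.68 ± 1.23 TPM. The ranges of each neighbouring pair down to *Lifr* and *Osmr* (0.693 ± 0.305 TPM) lay apart.

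Below *Osmr*, the ranges of *Il6ra* (0.383 ± 0.320 TPM), *Lif* (0.213 ± 0.0833 TPM) and *Osm* (0.197 ± 0.176 TPM) overlapped with their neighbours, so their order is not resolved. In cKO libraries *Socs3* stood before *Il6st*, at 51.0 ± 47.6 and 33.0 ± 22.9 TPM, and the other 7 genes kept their places. *Osmr* was at 11.0 ± 13.5 TPM and *Lifr* at 12.4 ± 6.82 TPM. Every neighbouring pair overlapped in this group, in which the SD of *Osmr* and *Lif* exceeded the mean.

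Promoter sequences were available for 7 of the 9 genes in the RefSeq table (GRCm38.p6, 250 bases before to 50 after a transcript start), in 8 windows. They were searched for the motif TTCNNNGAA, the core to which STAT dimers bind, which reads the same on both strands. Only the window of *Socs3* held it, 1 of 8, against 8.30% of all 32851 windows. The site starts 154 bases before the transcript start that the table uses. It is shown because *Socs3* is the feedback target of STAT3, beside 2 sites of *Icam1* and *Bcl6*, the genes with a match among the STAT3 response genes described next, with the motif in capitals.
*Socs3*, chr11:117969502-117969530, minus strand: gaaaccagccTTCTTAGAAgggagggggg
*Icam1*, chr9:21015888-21015916, plus strand: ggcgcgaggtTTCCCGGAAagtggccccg
*Bcl6*, chr16:23981433-23981461, minus strand: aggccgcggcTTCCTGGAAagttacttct
The windows of *Bcl6* held further matches that are not shown. Of the 28 windows of STAT3 response genes 3 held the motif, from 2 of 21 genes. With so few windows these shares, 12.5% and 10.7%, cannot be told from that of all windows, and a match is a description, not a binding site. *Bcl6* was at 1.14 to 2.76 CPM in control and 2.27 to 8.44 CPM in cKO libraries, and *Icam1* at 34.5 to 46.4 and 28.2 to 54.2 CPM, so the groups overlapped for both.

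The other genes of the pathway were taken from 7 lists of 72 genes in all, chosen with earlier results of these data known. Of these, 68 were in the table and 53 were tested. In edgeR's test 3 rose in cKO libraries and 0 fell, where 0.432% of all genes tested were called. These were *Lcn2*, which encodes lipocalin 2, and the S100 genes *S100a8* and *S100a9*. DESeq2 called 7 (6.94% of all genes), adding *Lrg1*, *Bcl3*, *Cebpd* and *Il4ra*. The fit with the block called 5 (6.09%), adding *Lrg1* and *Cebpd*. All were higher in cKO. The median log2 fold change of the 53 genes was 0.23, beside −0.00 for all genes tested. The 3 calls in edgeR were close to the threshold. edgeR also called 3 without cKO replicate 3, and it called 0 without cKO replicate 1 or 2 or any of the 3 controls. Without cKO replicate 1, 17 of the 53 reached 0.05 without adjustment (19.9% of all genes), and DESeq2 and the fit with the block called 7 each.

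Among the other gp130 cytokines, 4 of the 8 in the table were tested and 0 were called by edgeR or DESeq2. An unadjusted p of at most 0.05 in edgeR was reached by 1 of these 4, against 24.5% of all genes tested. *Il6* had at most 1 read in any library. Of the 4 other receptor genes 2 were tested and 0 called by either tool, with 1 at an unadjusted p of at most 0.05 (24.5% of all genes). *Cntfr*, the ciliary neurotrophic factor receptor through which CLCF1 signals, was at 8.85, 13.1 and 7.20 CPM in controls and at 14.0, 22.2 and 17.9 CPM in cKO libraries. Its log2 fold change was 0.89 (SE 0.28), with an adjusted p of 0.124 by edgeR, 0.0411 with the block and 0.0361 by DESeq2. The groups did not overlap, and replicate 1 was the lowest cKO library.

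Of the 11 kinases, STATs and adaptors, 0 were called by edgeR or DESeq2 and 4 reached 0.05 without adjustment in edgeR (24.5% of all genes). Their median log2 fold change was 0.11, and −0.15 without cKO replicate 1. *Jak2*, a kinase bound to gp130, was at 67.2, 78.4 and 62.3 CPM in control libraries, against 119, 100 and 102 CPM in cKO libraries. The groups did not overlap, and its log2 fold change of 0.63 (SE 0.13) had an adjusted p of 0.0679 by edgeR, 0.0349 with the block and 0.00250 by DESeq2. *Stat5a* was at 5.47 ± 1.10 CPM in control and 9.75 ± 2.71 CPM in cKO libraries (SD, n = 3 here and below, edgeR adjusted p = 0.143) and the adaptor gene *Shc1* at 85.9 ± 4.82 and 113 ± 19.1 CPM (edgeR adjusted p = 0.159). *Ptpn11*, which encodes the phosphatase SHP2, had lower values in each cKO library, 183 ± 18.6 against 232 ± 19.6 CPM (edgeR adjusted p = 0.163).

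Of the 11 other negative regulators 0 were called by edgeR or DESeq2, with a median log2 fold change of 0.15. *Socs6* was the only one with an unadjusted p of at most 0.05 in edgeR, which 24.5% of all genes reached. It was at 39.6 ± 3.81 CPM in control and 51.8 ± 7.06 CPM in cKO (edgeR adjusted p = 0.160). *Socs1*, the inhibitor most similar to *Socs3*, was at 8.48, 6.84 and 5.75 CPM in controls and at 10.4, 5.16 and 7.78 CPM in cKO libraries, where the groups overlapped.

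The STAT3 response genes, of which 20 of 25 were tested, had a median log2 fold change of 0.55, and 0.31 without replicate 1, with 16 fitted higher and 4 lower. *Lcn2* rose from 0.502, 0.242 and 0.190 CPM to 8.54, 3.71 and 3.10 CPM. Its log2 fold change was 4.01 (SE 0.59), at an adjusted p of 0.0498 (edgeR). *Lcn2* and *S100a8* were under 1 CPM in every control, so they passed the filter on low counts through the cKO group, and neither was tested when 10 counts were required in each library. *Lrg1*, an acute phase glycoprotein gene, had a fold change of the same order, with 1.26, 0.606 and 0.379 CPM in controls and 29.5, 3.46 and 7.25 CPM in cKO libraries. Its adjusted p was 8.06e-06 by DESeq2 but 0.0726 by edgeR, where the block lowered it to 0.00920. With only 0.606 and 0.379 CPM in control replicates 2 and 3, *Lrg1* also passed the filter on low counts through the cKO group. It went untested as well when 10 counts were required in each library.

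*Cebpd*, a transcription factor gene of the acute phase response, was at 4.90 to 6.06 CPM in control and 11.1 to 34.6 CPM in cKO libraries, with cKO replicate 1 the highest. Its log2 fold change was 1.96 (SE 0.41), and the adjusted p of 0.0679 (edgeR) became 0.0394 when the block was added. *Bcl3* was at 1.03 ± 0.387 and 5.23 ± 4.16 CPM (edgeR adjusted p = 0.114) and the cytokine receptor gene *Il4ra* at 10.8 ± 4.80 and 34.8 ± 26.7 CPM (edgeR adjusted p = 0.146). In both of these genes cKO replicate 1 was the highest library and the groups overlapped. *Ccnd1*, which encodes cyclin D1, was lower in each cKO library, at 633, 530 and 455 CPM in control and 326, 390 and 269 CPM in cKO libraries. Its log2 fold change was -0.72 (SE 0.19), with an adjusted p of 0.0896 by edgeR, 0.0348 with the block and 0.00934 by DESeq2.

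Of the keratinocyte genes that oncostatin M raises, 2 of the 5 in the table were tested and both rose. *S100a8* was at 0.691, 0.606 and 0.569 CPM in control libraries and at 8.80, 3.96 and 4.55 CPM in cKO libraries, and *S100a9* at 1.26 to 1.58 and 9.95 to 24.6 CPM. Their log2 fold changes were 3.20 (SE 0.42) and 3.39 (SE 0.42), each at an adjusted p of 0.0498 (edgeR), and 2.78 and 2.87 without cKO replicate 1. Neutrophils also hold large amounts of these transcripts and of *Lcn2*. Of the genes that oncostatin M lowers in keratinocytes, 3 were tested and 0 called by edgeR or DESeq2. *Krt1* was the only one of them with an unadjusted p of at most 0.05 in edgeR (24.5% of all genes). It was at 4.03 ± 0.666 and 2.39 ± 0.343 CPM, without overlap between the groups (edgeR adjusted p = 0.168).

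**Figure D4:**
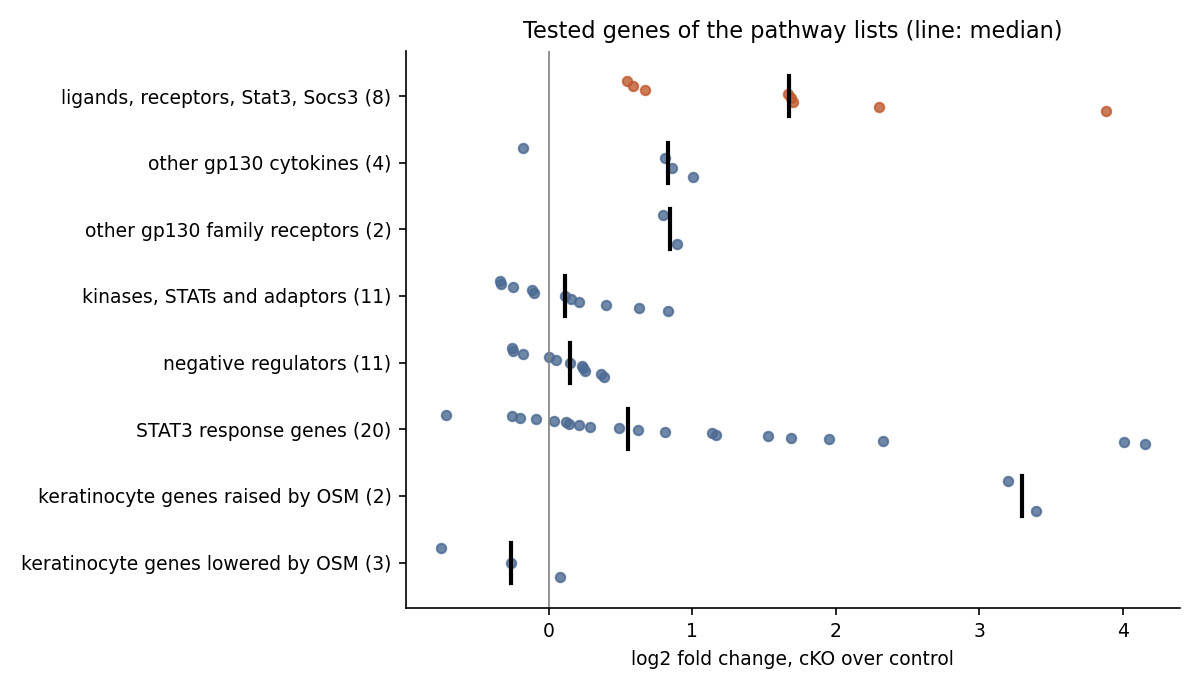
Log2 fold changes (cKO over control) of the tested genes of each list, with a point per gene, the number tested in brackets and the median as a line, and with the 8 ligand, receptor, *Stat3* and *Socs3* genes in orange. The kinases and the negative regulators have medians of 0.11 and 0.15, and the STAT3 response genes 0.55.

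Marker lists of some other cell types were also higher in cKO libraries, and others were not. In bulk RNA, more cells of a type and more RNA per cell cannot be told apart. For the counts below, 6992 of all 14131 genes tested were fitted higher in cKO libraries. An unadjusted p of at most 0.05 with cKO higher was reached by 13.0% of them in edgeR. edgeR called 0.432% of all genes, DESeq2 6.94% and the block 6.09%. The summed CPM of 11 macrophage markers was 49.0 to 116 in control libraries and 95.1 to 314 in cKO libraries, with 11 of 11 fitted higher. Of these edgeR called 0 (7 at an unadjusted p of at most 0.05) and DESeq2 5. The 9 neutrophil markers summed to 4.55 to 5.78 and 28.5 to 78.3 CPM, with 6 of 6 tested genes higher and 4 called in edgeR (*Ngp*, *Ltf*, *S100a8* and *S100a9*). *S100a8* and *S100a9* also stood among the keratinocyte genes above, so the neutrophil sum is not separate from their values. *Ltf* was at 0.121 to 0.379 CPM in control and 2.44 to 5.19 CPM in cKO libraries, so it passed the filter on low counts through the cKO group. The defining surface marker *Ly6g* was at 0 in each control and at 0.0629 to 0.190 CPM in cKO libraries. A count of 0 allows 0.182 to 0.198 CPM, so these values do not separate the groups. The 8 endothelial markers summed to 296 to 375 and 340 to 1004 CPM, with 8 of 8 higher, 0 called by edgeR (4 at an unadjusted p of at most 0.05) and 2 by DESeq2.

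cKO replicate 1 had the highest sum in each of these 3 lists, and the highest *Pdgfrb* and mast cell protease values given next. The 12 markers of dental papilla and mesenchyme summed to 4089 to 21670 CPM in controls and 12370 to 14232 CPM in cKO libraries, with 9 of 12 higher. edgeR called *Twist1* (8 at an unadjusted p of at most 0.05), DESeq2 called 6 and the block 7, all higher. Their median log2 fold change was 1.16, and 1.19 without cKO replicate 1. The mesenchymal receptor gene *Pdgfrb* was at 28.7 to 56.2 and 69.1 to 273 CPM. The 11 markers of dental epithelium summed to 10809 to 23740 CPM in controls and 4681 to 8207 CPM in cKO libraries, with 9 of 11 lower and *Cdh1*, the gene of E-cadherin, called by edgeR. DESeq2 called 3 and the block 4, all lower. *Amelx*, a marker of ameloblast differentiation, is part of the epithelial sums. It was at 1244, 4584 and 10697 CPM in control and 2.59, 51.8 and 224 CPM in cKO libraries. In control replicate 3 it made up 10697 of the 23740 CPM, so the distance between the sums depends in part on this gene. A sum without it was not taken. The groups did not overlap, with cKO lower, for 4 of the 11 epithelial markers, against 30.7% of all genes tested in either direction. *Epcam*, an epithelial surface marker, was at 248 to 418 and 284 to 357 CPM, so the marker was present in every library.

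The 8 markers of T and mast cells summed to 104 to 161 and 155 to 284 CPM, mostly *Kit* (102 to 159 and 149 to 279 CPM). Of the tested genes 4 of 4 were higher, with 0 called by edgeR (4 at an unadjusted p of at most 0.05) and 2 by DESeq2. *Cd4*, *Cpa3* and *Tpsb2* were under 1 CPM in every control, so they passed the filter on low counts through the cKO group. The T cell markers *Cd3e*, *Cd3g* and *Cd8a* reached at most 0.0659, 0.126 and 0.253 CPM in any library and were not tested. The mast cell protease genes were far below *Kit*, with *Cpa3* at 0.253 to 0.691 CPM in control and 16.6, 2.45 and 2.11 CPM in cKO libraries, and *Tpsb2* at 0.253 to 0.628 and 19.0, 2.27 and 1.52 CPM. The 6 bone markers summed to 239 to 828 and 330 to 571 CPM, with 4 of 5 lower, 0 called by edgeR (1 at an unadjusted p of at most 0.05) and 1 by DESeq2. No listed marker was at 0 in every library, but *Ly6g*, *Cd3e*, *Cd3g* and *Cd8a* were under 1 CPM in all of them. The part of these cell types in the values of *Osmr*, *Lifr*, *Socs3*, *Lcn2* and the S100 genes was not tested. In cKO replicate 3 the endothelial sum was 1.00 times the control mean and the macrophage sum 1.28 times, within the control range of both. In that library *Osmr* was at 6.29, *Lifr* at 2.17 and *Socs3* at 1.72 times the control mean, and the neutrophil sum at 5.52 times. The dental papilla and mesenchyme sum there was 0.932 times the control mean. Within that list *Col1a1* was at 7036 CPM against a control mean of 7797 and *Col1a2* at 2516 against 3577. The other genes of the list were higher there. Among them *Twist1* was at 41.9 CPM against a control mean of 11.6 and *Prrx1* at 86.0 against 25.9. *Postn* was at 116 against 46.4 and *Msx1* at 77.5 against 35.4 CPM.

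**Figure D5:**
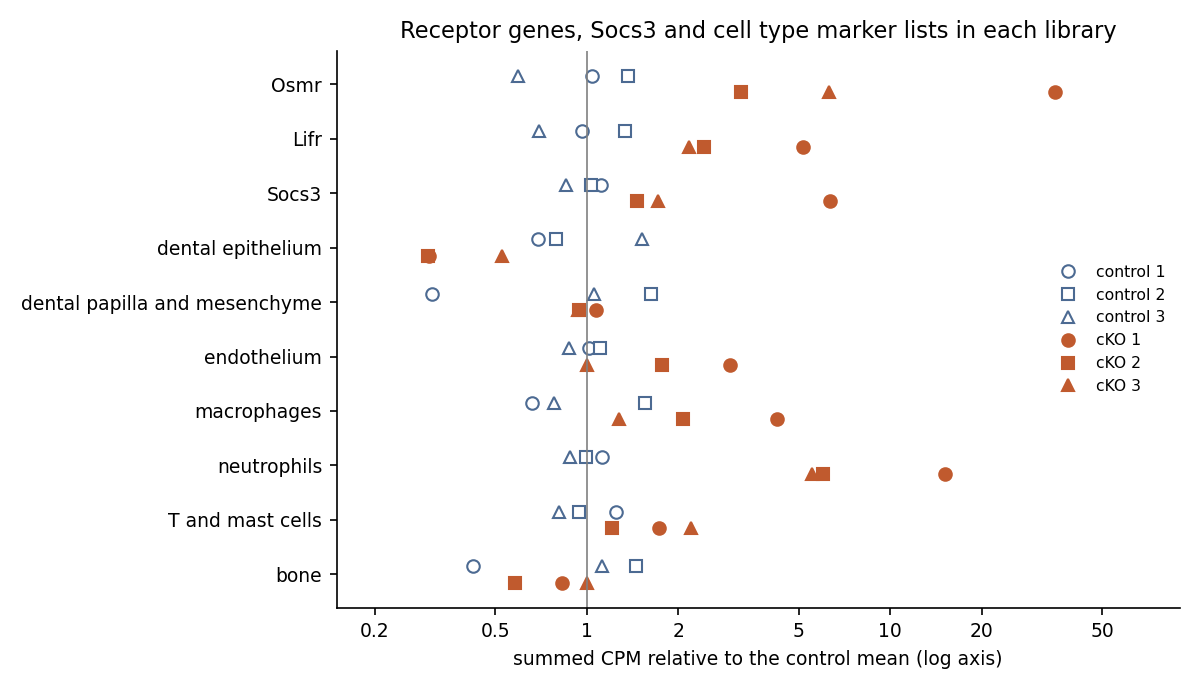
CPM of *Osmr*, *Lifr*, *Socs3* and the summed CPM of each marker list in each library, relative to the control mean, on a log axis, with open markers for control and filled markers for cKO libraries and the marker shape for the replicate number. cKO replicate 1 (filled circles) is highest for the 3 genes (34.9, 5.17 and 6.32 times the control mean) and for the endothelial, macrophage and neutrophil lists (2.96, 4.22 and 15.2 times).

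The genes whose profile over the 6 libraries was most like that of *Osmr* were found among 13646 genes by the root mean square difference between centred log2 CPM profiles. The closest was *Tgm2*, which encodes transglutaminase 2, at a difference of 0.14, with 2.72 to 6.15 CPM in control libraries and 155, 15.3 and 28.0 CPM in cKO libraries. *C4b*, a complement gene, *Pamr1*, *Hp*, which encodes the acute phase protein haptoglobin, and *Gpr176* followed at 0.17, 0.23, 0.26 and 0.28. In all 5, as in *Osmr*, cKO replicate 1 was highest, then replicate 3, then replicate 2.

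The genes most like *Socs3* were *Itgb3* (integrin beta 3), *Slc37a2*, *Gda*, *Rgs16* and *Vegfc*, the last of which encodes a growth factor of lymphatic vessels, at 0.14, 0.15, 0.16, 0.17 and 0.18. *Itgb3* was at 6.25 to 8.10 CPM in control libraries and at 52.5, 10.3 and 10.7 CPM in cKO libraries.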

How the data were processed

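RNA was read from 6 libraries. The submitters' processing notes name BWA 0.7.12, Picard 2.6.0 and StringTie, and the genome build and annotation are not given in the sources used here. The deposited estimated counts are the authors' reads per gene without normalisation, of which 10.9% to 11.5% per library were not whole, and they were rounded. In the deposited TPM columns the authors had divided by transcript length and set the sum of each library to the same value. The deposited FPKM values, which the authors scaled by length and library size, served 1 alternative. The authors' group means were not used.

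In R 4.3.3 with edgeR 4.0.16, filterByExpr kept 14131 genes, TMM factors were 0.950 to 1.03, and robust quasi-likelihood F-tests (two-sided) were adjusted by Benjamini-Hochberg over all genes. DESeq2 1.42.0 and limma 3.58.1 served as alternatives. The procedure was tested on simulated data with the same dispersion for every gene and no outlying library. That test does not bear on how it handles the spread of these libraries. Between libraries of the same group, the variance was 35.4 to 77.3 times that from sampling, so none was a duplicate. After subtracting group means, libraries sharing a replicate number correlated at 0.132, 0.353 and 0.520 across genes. Libraries with different numbers correlated at -0.436 to 0.144. The highest of these, control 2 with cKO 1, was above the 0.132 of replicate 1, so the check does not single out that pair. The labels do not state pairs, and fits with the replicate block were added as an alternative. Where replicates are technical the p-values measure only that spread.

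The genes and lists were chosen with earlier results of these data known. From each list, every gene past the criterion was named, and so were up to 4 others with the largest changes among those over 1 CPM whose unadjusted p was 0.05 or less. The 5 genes most like *Osmr* and *Socs3* were added. Single marker genes, *Socs1*, *Bcl6*, *Icam1* and *Ccnd1* were named after their values were seen. Log2 CPM used a prior count of 2. The list genes *Il31*, *Defb4*, *Defb14* and *Ivl* were not analysed here. A gene that the naming rule selected is not reported here.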

Additional observations from a re-analysis of the deposited data

How the results depend on the processing

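Over all genes, edgeR called 61 genes. DESeq2 called 980, edgeR with the replicate block 860, no filter on low counts 103, limma on log2(TPM + 1) 16, library size alone 9, DESeq2's size factors in edgeR 7, and limma-voom 6, as did a filter that required 10 counts in each library. Leaving out 1 library gave 1 to 465 genes, the latter without cKO replicate 3. Of the genes called, 20 of 61 were higher in cKO, against 1 of 7 with size factors, 2 of 9 with library size alone, 714 of 980 in DESeq2, 588 of 860 with the replicate block and 329 of 465 without cKO replicate 3. Among the 9 genes of the pathway, 0 were called, with 3 in DESeq2, 1 with the replicate block, and 0 in each fit without 1 library. Among the other pathway genes, 3 were called, with 7 in DESeq2, 5 with the replicate block, 0 with DESeq2's size factors, library size alone, limma-voom or the filter of 10 counts, and 0 to 3 without 1 library (3 only without cKO replicate 3). A pair of fits without cKO replicate 1 was chosen after seeing the data. DESeq2 then called 573 genes, 2 of the 9 and 7 of the other pathway genes, and edgeR with the replicate block called 836, 2 and 7. *Il6st* changed its sign without that library, to −0.077 in edgeR, −0.087 in DESeq2 and −0.059 with the replicate block, where the fits without 1 library ranged up to 0.87. The log2 fold changes of the other 7 fitted genes of the pathway kept their sign in every alternative, from 2.20 to 4.39 for *Osmr* and 1.20 to 1.97 for *Lifr*. The control order by TPM held for 9 genes with FPKM and for 7 without control replicate 1 or 2. Counts of at most 12 in each control for *Osm* and *Lif*, and at most 21 for *Il6ra*, limit their precision. The cause of these changes was not tested.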
